A study of Homo sapiens with 2 samples.

Results

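The genes that the ERK pathway switches on, and that mostly act to hold it back, were compared between 2 cultures of Ca9-22 cells, one infected with a lentiviral vector for DLEU1 and one with a control vector. The set holds 10 genes out of 43317 gene names on the array. They are the phosphatases DUSP4, DUSP5, DUSP6 and DUSP7, the adaptor inhibitors SPRY2, SPRY4 and SPRED1, the ETS factors ETV4 and ETV5, and PHLDA1. Members were chosen by gene name, taking every non-control probe whose name equalled one of the 10, which gave 12 probes.

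The cell line Ca9-22 comes from an oral squamous cell carcinoma (OSCC). Both cultures were infected with lentivirus and then kept in blasticidin, given as 6 mg/ml, for 2 weeks, so infection and drug selection were shared. One group carried DLEU1, a long noncoding RNA whose full-length cDNA had been cloned from another OSCC line, and the other an empty vector. There was 1 Agilent 1-colour array per group, with no replicate culture, so differences could not be tested and carry no replicate error. The study used these arrays to ask which genes ectopic DLEU1 changes.

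ERK is the last kinase of a cascade that runs from growth factor receptors through RAS, RAF and MEK. Active ERK induces its own brakes within hours: dual-specificity phosphatases (DUSPs) strip the activating phosphates from MAP kinases, and Sprouty and SPRED proteins act higher up, between receptor and RAF. It also induces the ETS factors ETV4 and ETV5, and the transcript levels of these genes are widely read as a measure of pathway output. In squamous epithelium, signalling through the EGF receptor is a main feed into this cascade.

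With the DLEU1 vector most of these genes were lower. Of the 9 members detected on both arrays, 7 were at least 2-fold lower, 0 were at least 2-fold higher, and 2 lay between. Among all 20246 gene names detected on both arrays 9.78% were at least 2-fold lower and 9.18% at least 2-fold higher. The median log2 difference, DLEU1 vector minus control vector, was -1.54 over these 9 members and -0.07 over all genes. The remaining member, ETV4, was detected with the control vector only. With it at its bound, the median was -1.62. ETV4 enters this value by its control vector signal alone, which favours lower values, and the -0.07 over all genes holds no genes at bounds. PHLDA1 (-3.54) and ETV5 (-2.85) had the largest differences among the members measured on both arrays, although with the normexp background correction DUSP6 (-1.56) differed by more than ETV5 (-1.41). All values are log2 processed signal minus the 75th percentile of the array, and a gene stands at its brightest probe detected on both arrays.

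All 12 member probes were single spots, so none carries its own replicate error. For 282 probes printed several times and detected on both arrays, spots of a probe scattered with an SD of 0.080 in their log2 difference. Different probes of a gene differed by a pooled SD of 0.47, with a median over genes of 0.23 (4674 genes). The scanner software adds its own error estimate to each spot, which is mostly a fixed share of the signal and is given below as ±. None of these holds the variation between cultures. DLEU1 was higher with its vector, at a log2 level of 5.91 against 3.17 for its brightest probe, a difference of 2.74. Its other probes, which read another transcript, differed by 0.85 and 0.54. On the DLEU1 vector array a strip of spots was damaged, and 0 of the 12 member probes lay in it. All 8 epithelial markers read (KRT5, KRT14, KRT8, KRT18, CDH1, EPCAM, TP63 and SFN) were detected on both arrays. KRT14 (2.85), KRT5 (2.10) and CDH1 (1.04) were higher and KRT18 was lowest (-0.93). The CDH1 probe has several spots, at least some in the damaged strip, and its value leaves out outlier spots. Over all its spots the unscaled signal was 4604 units on the control array and 5981 on the DLEU1 array, a smaller gap. Of the fibroblast markers 2 of 6 were detected on both, of the endothelial markers 2 of 4 and of the immune markers 3 of 4 with a probe. COL1A1 (3.99) and VWF (3.70, another probe -0.07) were higher with the DLEU1 vector and CD14 was lower (-1.60), PDGFRB (-0.33), CDH5 (-0.59) and PTPRC (0.45) lay within 2-fold, COL1A2, COL3A1, DCN, PECAM1 and KDR were not detected on either array, and the part of other cell types in the results was not tested.

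Promoter sequences were read for the members because most of their transcripts were lower together. RefSeq promoters (build GRCh38.p14) were given for 6 of the 10 members. The 250 bases before the start site of 3 of them are shown, for a phosphatase that was lower, an inhibitor that was lower and a phosphatase that was not. Capitals mark GGAA on either strand, a form of the core that ETS factors recognise. The core was picked after the values were seen, and its part in the differences was not tested.
DUSP6: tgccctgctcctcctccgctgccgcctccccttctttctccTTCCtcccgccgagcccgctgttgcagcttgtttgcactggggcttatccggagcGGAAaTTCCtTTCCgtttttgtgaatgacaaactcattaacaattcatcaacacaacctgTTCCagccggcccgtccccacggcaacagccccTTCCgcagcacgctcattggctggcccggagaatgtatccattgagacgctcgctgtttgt
SPRED1: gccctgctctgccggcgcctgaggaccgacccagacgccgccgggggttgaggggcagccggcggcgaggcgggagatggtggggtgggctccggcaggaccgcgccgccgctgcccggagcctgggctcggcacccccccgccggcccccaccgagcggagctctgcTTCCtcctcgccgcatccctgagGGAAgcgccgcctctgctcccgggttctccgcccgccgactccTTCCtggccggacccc
DUSP7: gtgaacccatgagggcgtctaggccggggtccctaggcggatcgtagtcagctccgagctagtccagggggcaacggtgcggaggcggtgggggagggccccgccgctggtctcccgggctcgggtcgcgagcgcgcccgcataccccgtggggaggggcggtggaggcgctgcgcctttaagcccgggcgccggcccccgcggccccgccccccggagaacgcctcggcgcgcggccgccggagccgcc
These windows are chr12:89352502-89352751 (minus strand), chr15:38252586-38252835 (plus strand) and chr3:52056572-52056821 (minus strand). Counting GGAA only, DUSP6 held 6 cores, PHLDA1 4, SPRED1 3, SPRY2 3 and SPRY4 2, and DUSP7 held 0. The median over 27305 promoters of the same length was 3, and 92.8% of them held at least 1, with quartiles of 2 and 4. DUSP7 lay below these quartiles, DUSP6 above them, and the other 4 members on or within them. The windows also differed in base composition, with 78.4% G and C for DUSP7 and 57.2% for DUSP6. The median was 70.4% for the members against 58% for all promoters, and its part in the counts of the core and of longer motifs was not tested. Longer motifs were searched on both strands: AP-1 (TGANTCA, in 6.60% of all promoters), CRE (TGACGTCA, 1.77%), an ETS site (CCGGAAG, 8.82%, which contains the core), the SRF core (0.033%) and E2F (TTCCCGCC, 2.77%, which also contains it). None was found in the 6 member windows, which says only that these letters are not there.

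Of the phosphatases, DUSP4, DUSP5 and DUSP6 were lower, while DUSP7, dim on both arrays, was nearly level. DUSP6, a cytoplasmic phosphatase that acts on ERK itself, had a processed signal of 1613 ± 161 on the control array against 485 ± 48.7 on the DLEU1 array. Its log2 difference was -1.70, or 3.24-fold lower. The probe lies on chromosome 12 from 89742144 to 89742203 (hg19, minus strand). DUSP5 acts on ERK in the nucleus, and its probe (chromosome 10, 112270900 to 112270959, plus strand) read 372 ± 37.3 and 125 ± 12.9, a difference of -1.54. For both genes the gap between the arrays was several times the software error of either spot.

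DUSP4 is a nuclear phosphatase with a wider choice of MAP kinases. Its probe (chromosome 8, 29194382 to 29194441, minus strand) read 198 ± 20.1 on the control array against 75.3 ± 8.32 on the DLEU1 array, a difference of -1.35. With the normexp background correction, which pulls dim values together, this became -0.84 and the gene no longer passed 2-fold. DUSP7, the cytoplasmic ERK phosphatase closest in kind to DUSP6, read 39.6 ± 5.15 and 36.4 ± 4.95. Its difference of -0.08 was about the size of the spot SD and was positive with normexp (0.020) and with detected-probe scaling (0.029), in which the 75th percentile is taken over detected probes only. The DUSP7 probe covers chromosome 3 from 52088352 to 52089886 (minus strand), a span of 1535 bases for a 60-base probe.

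**Figure D1:**
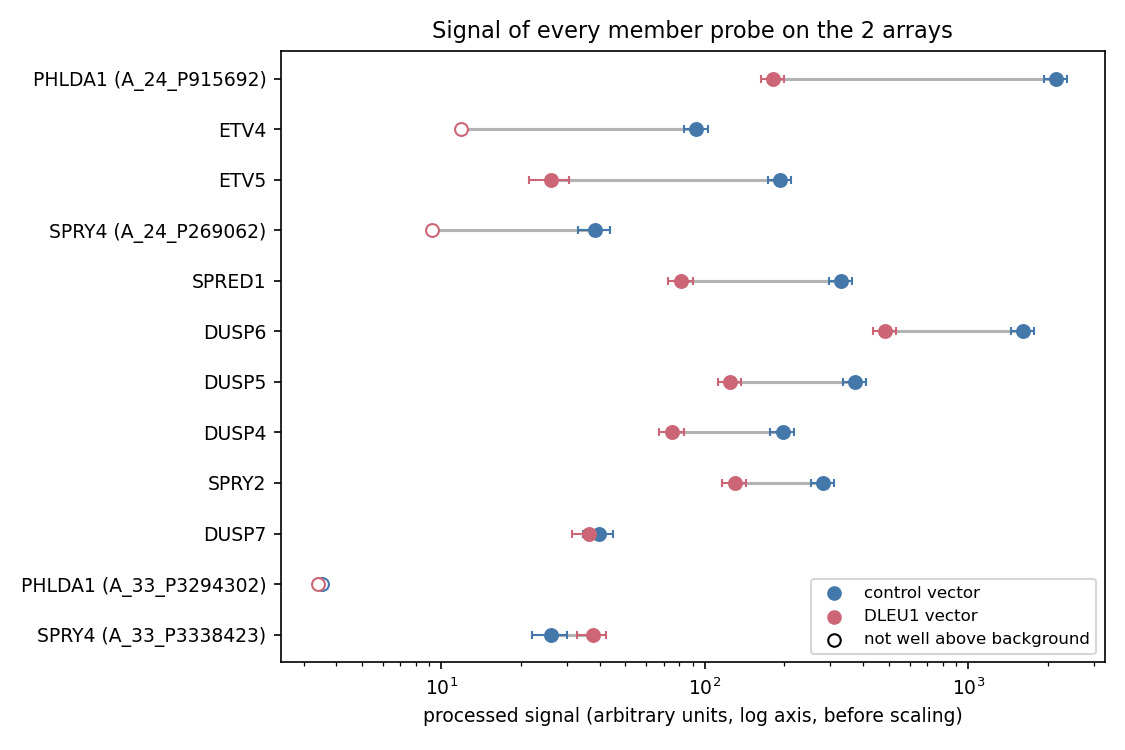
Processed signal (arbitrary units, log axis, before scaling between arrays) of each of the 12 member probes on the control vector array (blue) and the DLEU1 vector array (red). Open circles were not well above background, bars on detected spots are the software's error estimate, and positions of different probes are not comparable as RNA levels. PHLDA1 stands at 2161 and 181 units at its bright probe, while the DUSP7 circles overlap.

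The adaptor-level inhibitors were lower for SPRED1 and SPRY2, and the 2 probes of SPRY4 disagreed. SPRED1 draws the RAS-inactivating protein neurofibromin to the membrane. Its probe (chromosome 15, 38645760 to 38645819, plus strand) read 329 ± 33.0 on the control array against 81.5 ± 8.82 on the DLEU1 array, a difference of -1.97 or 3.93-fold. SPRY2, an inhibitor of receptor signalling to RAS, read 281 ± 28.3 and 130 ± 13.5 at chromosome 13, 80910622 to 80910681 (minus strand). At -1.07 (2.10-fold) SPRY2 was the member nearest the 2-fold threshold on its lower side, and it missed it with normexp (-0.80) and with detected-probe scaling (-0.96).

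SPRY4, a further Sprouty protein, was dim on both arrays. Its probes read different transcripts and different places, and the first 30 bases of each are shown because their values part.
A_24_P269062: tcgccatcatacctcgagtgaggcccagct
A_33_P3338423: tgaagaccagccatgtggagaatgactaca
The first probe (transcript NM_030964, chromosome 5, 141690571 to 141690630, minus strand) read 38.3 ± 5.35 with the control vector. On the DLEU1 vector array it was not well above background, at 9.23 ± 3.83, which makes it at least 2.61-fold lower (a log2 bound of -1.38). With normexp the bound was -0.31, short of 2-fold. The second probe (NM_001293289, 141694487 to 141694546) read 26.1 ± 3.94 and 37.5 ± 4.75, a difference of 0.56 with a software error of 0.28. The gene was counted by the second probe, the only one detected on both arrays, so SPRY4 has no single direction here.

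PHLDA1 and ETV5 had the lowest differences of the members detected on both arrays, ETV5 not so with normexp, and ETV4 had only a bound. ETV4 and ETV5 belong to the PEA3 group, transcription factors that are freed from repression when ERK is active. The ETV5 probe (chromosome 3, 185764547 to 185764606, minus strand) read 193 ± 19.7 on the control array against 26 ± 4.49 on the DLEU1 array, making it 7.23-fold lower (-2.85). Because the second value is dim, its size moved with the background correction, to -1.41 with normexp. The ETV4 probe (chromosome 17, 41605966 to 41606025, minus strand) read 93.0 ± 9.85 with the control vector. With the DLEU1 vector it was not well above background, at 11.9 ± 3.48, so ETV4 was lower with a bound of 6.33-fold. With normexp this bound shrank to -1.03 on the log2 scale, from -2.66.

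PHLDA1 encodes a pleckstrin homology-like domain protein induced by growth factor signalling. Its bright probe A_24_P915692 (chromosome 12, 76419627 to 76419686, minus strand) read 2161 ± 216 on the control array against 181 ± 18.5 on the DLEU1 array. The difference of -3.54, or 11.6-fold, was the 20th lowest among the 20246 genes, and ETV5 was the 115th. A second PHLDA1 probe, A_33_P3294302 (76426022 to 76426081), was not well above background on either array (3.53 and 3.41), so it gave no value for the gene. The 2 probes share no place, and begin as follows.
A_24_P915692: tacaggatctaaaagggttttcttagaaag
A_33_P3294302: ttgctttaacaatcgccctctttccaagaa

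**Figure D2:**
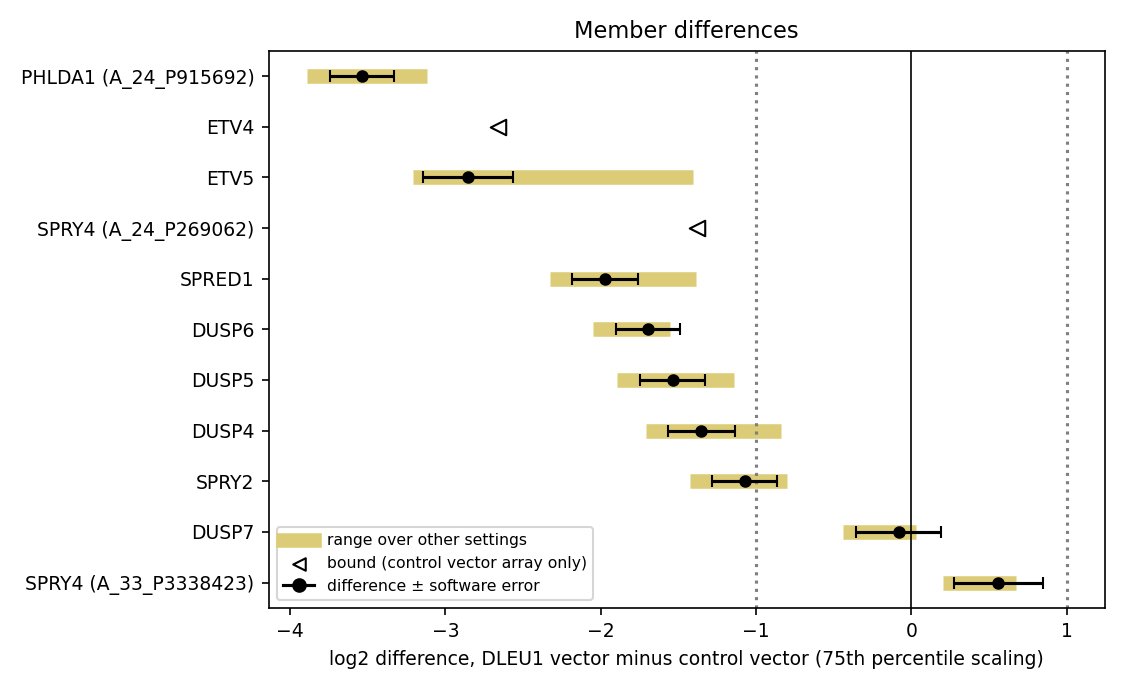
Log2 difference (DLEU1 vector minus control vector, scaled by the 75th percentile) of the 11 member probes detected on at least 1 array. Points carry the software's error estimate, yellow bands give the range of the gene's difference over the other settings, triangles are bounds for probes detected on the control vector array only, and dotted lines mark 2-fold. DUSP4 and SPRY2 are the members whose bands cross the lower 2-fold line.

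Counting by the brightest probe on the control vector array, with bounds included, put 9 of the 10 members at least 2-fold lower, against 10.8% of the 21311 genes detected there. Genes entered this count by their signal on the control vector array alone, which favours lower values, for the members and for all genes. No like count was made from the DLEU1 vector array. In the count made, SPRY4 stands at its other probe, whose bound passes 2-fold without normexp but not with it. From the lowest up, the order of differences was PHLDA1, ETV5, SPRED1, DUSP6, DUSP5, DUSP4, SPRY2, DUSP7 and SPRY4. Neighbours from SPRED1 to SPRY2 were 0.16 to 0.28 apart, under the pooled SD of 0.47 between probes of a gene and around its median over genes of 0.23, so their order is not resolved. PHLDA1 stood 0.68 below ETV5, ETV5 0.88 below SPRED1 and SPRY2 0.99 below DUSP7. The place of ETV5 is not held either, since with normexp it lay at -1.41, beside SPRED1 (-1.39) and above DUSP6 (-1.56).

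**Figure D3:**
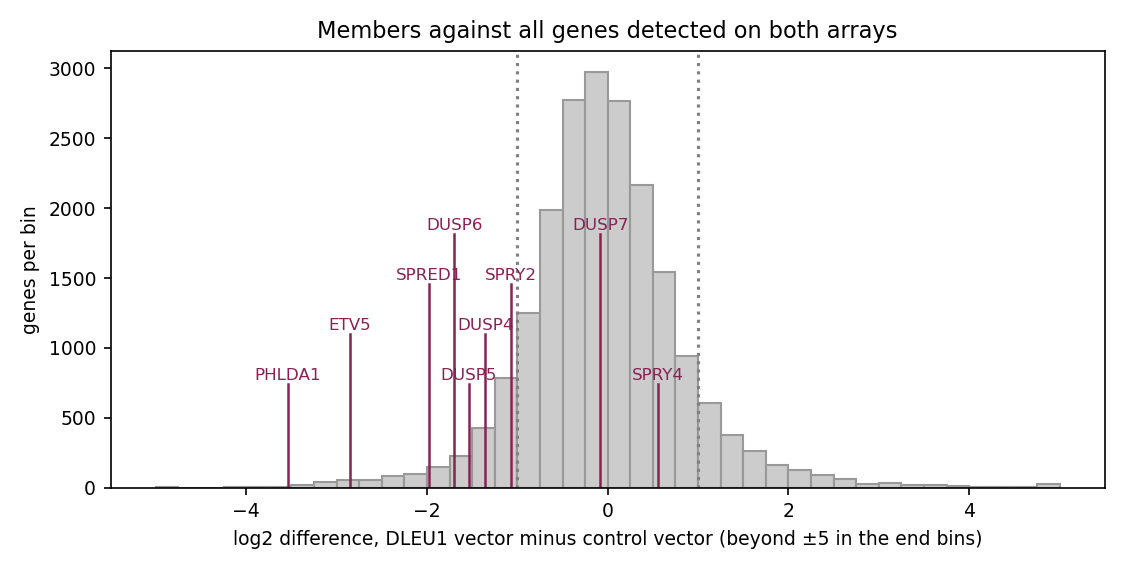
Number of genes per 0.25-wide bin of log2 difference (DLEU1 vector minus control vector) for the 20246 genes detected on both arrays, with the 9 members detected on both as lines whose heights only separate the names. Dotted lines mark 2-fold, and 7 of the 9 members lie left of the lower line.

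The scaling between arrays moved all genes together and left the members below them. The median of all genes shifted by -0.11 with median scaling, by 0.11 with detected-probe scaling and by -0.36 with spike-in scaling. The median of the members went to -1.65, -1.43 and -1.89 with these. Spike-in scaling also moved the share of all genes at least 2-fold lower to 19.7% and higher to 5.30%, and 7 members remained at least 2-fold lower there.

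The rest of the pathway was read from 11 lists of 118 other genes, of which 106 were detected on both arrays. Of these, 14 (13.2%) were at least 2-fold lower, against 9.78% of all genes, and 16 (15.1%) at least 2-fold higher, against 9.18%. The other 76 lay between, and the median was 0.09. The counts of each list below stand against the same shares of all genes. Spike-in scaling gave 23 lower and 8 higher with a median of -0.27, so the direction of this median is not settled. The members' relatives and the pathway's parts are taken in turn from the cell surface inwards.

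Among ligands, the growth factors that open the cascade, 3 of 8 detected genes were at least 2-fold lower and 0 were higher (median -0.55). NRG1, a ligand of ERBB3 and ERBB4, read 3078 units on the control array against 182 on the DLEU1 array (-4.04), and its other probe differed by -4.07. EREG was lower by 9.30-fold (157 and 16.4 units) and HBEGF by 2.59-fold (300 and 113 units), both being EGF receptor ligands. AREG, another of these, differed by -0.77. With normexp EREG, dim on the DLEU1 array, moved from -3.22 to -1.44, and HBEGF came just short of 2-fold (-0.98). EGF had the highest value of the list (0.75).

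Among receptors, 2 of 9 detected genes were at least 2-fold higher and 1 was lower, with a median of 0.45. IGF1R (1.23) and ERBB3 (1.11) were higher, and FGFR1 was lower by 2.95-fold, to -1.56. IGF1R and ERBB3 lay under 2-fold with spike-in scaling (0.87 and 0.75), ERBB3 just so with median scaling too (0.997), as FGFR1 did with normexp (-0.90). A second ERBB3 probe differed by 0.38. The brightest EGFR probe differed by 0.53 and another by 1.16, and the ERBB2 probes parted in sign (0.77 and -0.67). ERBB4 was detected with the DLEU1 vector only, at least 5.13-fold higher, a bound that was not taken with normexp.

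Of 13 RAS, RAF, MEK and ERK genes with their scaffold SHOC2, 1 was at least 2-fold higher and 0 were lower, with a median of -0.22, where 9.18% and 9.78% of all genes were called. MRAS, a RAS relative, was higher (1.70), HRAS had the lowest value (-0.84), and the kinase MAP2K1 differed by -0.32. Of 14 adaptors and RAS regulators, 2 were at least 2-fold lower, 2 higher and 10 between. GAB2 (2.01) and SOS2 (1.06) were higher, SOS2 lying under 2-fold with normexp (0.88), median scaling (0.94) and spike-in scaling (0.70). CBL (-3.14) and PTPN11 (-1.04) were lower, but both values came from spots in the damaged strip, and the PTPN11 probe outside it gave -0.65. Among the kinases that ERK activates, RPS6KA2 was higher (2.60) and the other 6 detected lay within 2-fold, RPS6KA1 lowest at -0.40.

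**Figure D4:**
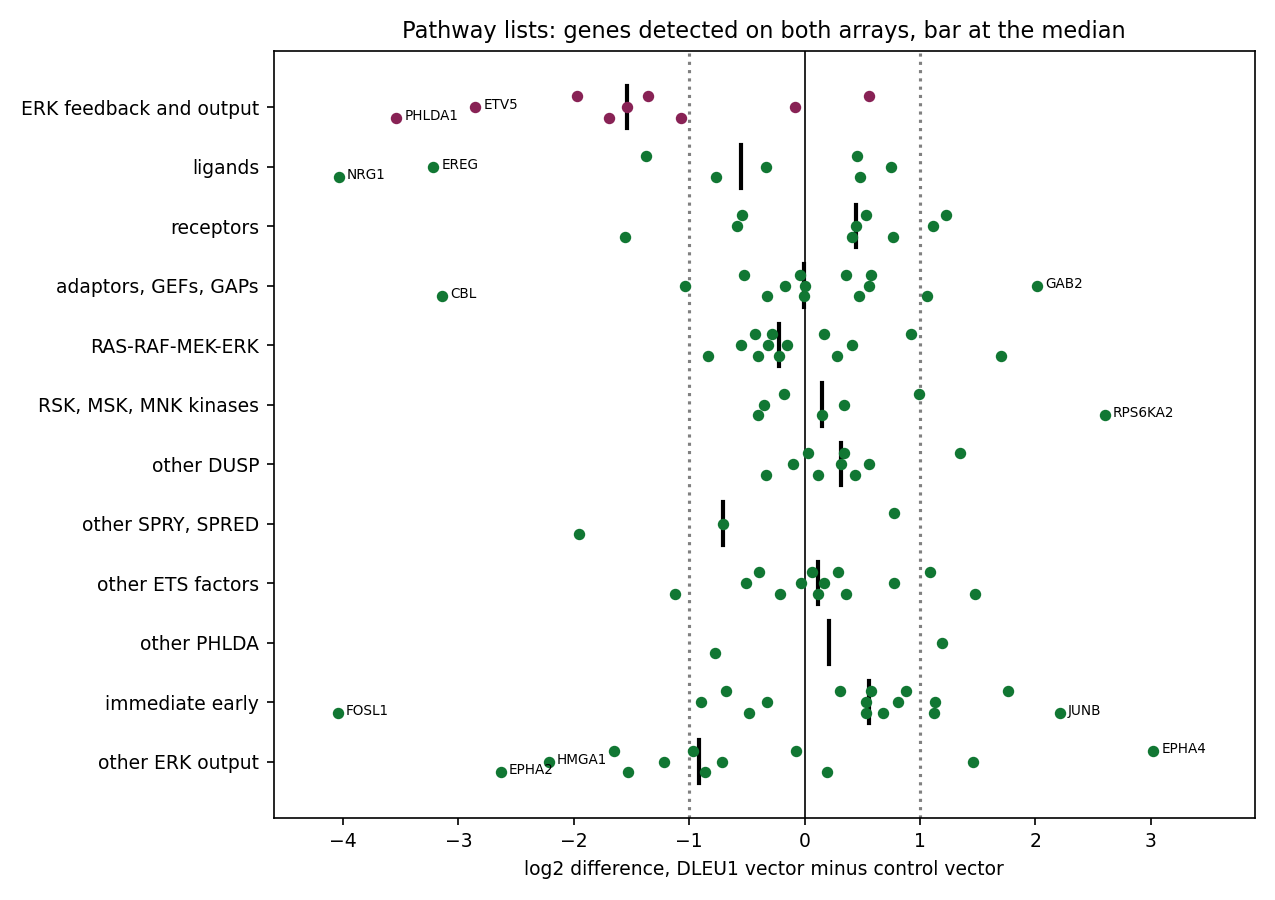
Log2 difference (DLEU1 vector minus control vector) of each gene detected on both arrays, for the members (purple) and the 11 other pathway lists (green). Black bars are list medians, dotted lines mark 2-fold, points are spread vertically for legibility, and genes past 4-fold are named; the CBL and EPHA4 spots lay in the damaged strip. The member median is -1.54 and the medians of the other lists run from -0.92 to 0.55.

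Relatives from the members' own families were read next. Of 9 other DUSPs detected on both arrays, 0 were at least 2-fold lower and 1 was higher, counts near the shares of all genes (9.78% and 9.18%), and DUSP8 had the lowest value (-0.34). That gene was DUSP10 (1.35, from 896 to 2224 units), which acts on the stress kinases p38 and JNK rather than ERK, and it lay at 0.99 with spike-in scaling. DUSP1, an immediate early phosphatase that also favours the stress kinases, differed by 0.34 and by -0.02 with spike-in scaling. SPRED2, the closest relative of SPRED1, was lower by 3.88-fold (116 and 29.1 units), to -1.95 on the log2 scale, and by -0.94 with normexp. SPRY1 differed by -0.71 and SPRY3 by 0.77.

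Of 13 other ETS factors, 1 was at least 2-fold lower, 2 higher and 10 between. The epithelial factors EHF (1.47) and ELF3 (1.09) were higher, ELF3 at 0.73 with spike-in scaling and 0.97 with median scaling. ETS1 was lower (-1.12), although its dim values brought this to -0.46 with normexp, and taking off the local median of nearby spots gave -0.97. ETV1, the third PEA3 factor, was dim, at -0.03 in the probe detected on both arrays. PHLDA3, a target of p53, was higher by 1.19 while PHLDA2 differed by -0.77, and with spike-in scaling PHLDA3 lay at 0.84.

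The immediate early genes, which ERK and stress kinases switch on within minutes, contained 1 gene far below the rest. FOSL1, an AP-1 subunit that accumulates under lasting ERK activity, read 4262 units on the control array against 251 on the DLEU1 array (-4.05). Of the other 15 detected, 4 were at least 2-fold higher and 11 lay between. JUNB (2.21) and EGR2 (1.76) were higher under each scaling run, while FOSL2 (1.12) and ATF3 (1.13) lay under 2-fold with spike-in scaling (0.77 and 0.78). EGR1 differed by 0.81 and FOS by 0.30, and FOS turned to -0.05 with spike-in scaling. The list median was 0.55.

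Other genes tied to ERK output, with CIC (-0.08) among them, were spread widely. Of these 12, 5 were at least 2-fold lower and 2 higher, and the median was -0.92. EPHA2, an ephrin receptor, was lower by 6.21-fold (515 and 80.8 units), and the chromatin proteins HMGA1 (-2.22) and HMGA2 (-1.65) were lower too. ERRFI1, a feedback inhibitor of the EGF receptor, was lower by 2.89-fold (5410 and 1826 units), and the uridine phosphorylase UPP1 by 2.32-fold. UPP1 missed 2-fold with loess (-0.99), while its other probe gave -1.79, and the 3 HMGA2 probes ran from -3.37 to -0.04. CCND1, cyclin D1, differed by -0.71. EPHA4 (3.02) and EMP1 (1.46) were higher, the EPHA4 spot being in the damaged strip.

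Markers of growth and of maturation also differed between the arrays. All 8 proliferation genes read passed 2-fold on the lower side, and their median was -2.86. They ran from MKI67 (-3.09), BUB1 (-3.08), AURKA (-3.02), CCNB1 (-2.86), TOP2A (-2.86) and CDK1 (-2.76) to MCM2 (-2.16) and PCNA (-1.95). Of 6 keratinocyte differentiation genes detected on both arrays 5 were at least 2-fold higher, with a median of 4.31. These were IVL (5.84), KRT13 (5.80), SPRR1B (5.10), FLG (3.52) and TGM1 (2.49), with KRT10 at 0.53, and KRT1 and LOR were detected with the DLEU1 vector only. Their part in the member values was not tested. In RNA from whole cultures, fewer cells with a transcript and less transcript per cell cannot be told apart, and with 1 culture per vector neither can the vector and the culture.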

How the data were processed

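RNA from 2 Ca9-22 cultures, 1 per vector, was labelled with Cy3 and hybridised to 1 array each (60-base probes, positions on hg19). The deposited intensity values came, per the file headers, from Agilent Feature Extraction 10.7.3.1, which subtracted local background, detrended the signal and gave dim spots surrogate values. The authors analysed them in GeneSpring, with no threshold stated. The deposited series values were the same signals, rounded.

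Control spots and spots marked as outliers (84 and 103) were left out. Log2 processed signals were averaged over the spots of a probe, and the 75th percentile of the array (7.92 for the control vector and 7.88 for the DLEU1 vector) was subtracted. A probe was detected where most of its spots were well above background, which held for 47.6% and 48.1% of 58201 probes. No spot was saturated (0). The number of arrays limits the precision. For a probe detected on one array, the bound set its level there against whichever was higher on the other array, the dimmest detected probe or the probe itself. Folds given as "at least" for such probes are these bounds, which are not strict limits. On the DLEU1 array a DCN probe at 17.0 units was not well above background, while the EREG probe at 16.4 units was. A difference was called at 2-fold.

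The members and lists were chosen with earlier results of these data known. All members were named, as were, from each list, its extremes and the genes at least 2-fold different, and the GGAA core and genes named beyond this were picked after their values were seen. No gene was named for a like pattern, since 2 arrays give 1 difference. Python 3.11.15, pandas 2.3.3 and limma 3.58.1 were used. Alternatives covered scaling, background correction (normexp, offset 50), filters, probe rules, spot position (the median of the 100 nearest detected spots) and thresholds. Spike-in scaling set the mean of 8 spike-in probes equal. Leaving out the damaged strip (rows 1 to 128, columns 31 to 47) was chosen after seeing the data.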

Additional observations from a re-analysis of the deposited data

How the results depend on the processing

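No paired analysis was possible because each vector had 1 array. Causes were not tested. PHLDA1, ETV5, SPRED1, DUSP6 and DUSP5 were at least 2-fold lower under all settings run in which they were measured and the threshold was 2-fold. The member median was -1.65 when arrays were scaled to the median, -1.43 with detected-probe scaling, -1.89 with spike-in scaling, -1.14 with normexp and -1.34 after the local median was taken off. When both signals had to reach 100, fewer genes were tested, and 4 of the 4 members left were at least 2-fold lower, against 10.2% of all genes left. At a 3-fold threshold 4 of 9 members were lower, against 3.31% of all genes. At 2-fold, 5 were lower with normexp (6.98% of all genes) and 6 with detected-probe scaling (7.78%). DUSP7 turned positive with normexp (0.020) and with detected-probe scaling (0.029).

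For the other pathway genes the median turned negative with median scaling (-0.025) and spike-in scaling (-0.27), and was 0.20 with detected-probe scaling and 0.19 after the local median was taken off. Counts of lower genes were 23 with spike-in scaling, 9 when signals had to reach 100, 23 at 1.5-fold and 8 at 3-fold. The shares of all genes lower were 19.7%, 10.2%, 22.0% and 3.31% in the same settings. Counts of higher genes were 8 with spike-in scaling, 25 at 1.5-fold and 6 at 3-fold, against 5.30%, 18.4% and 3.82% of all genes. Spike-in scaling turned the medians of the other DUSPs (-0.037), other ETS factors (-0.24), other PHLDA genes (-0.15) and effector kinases (-0.21). The adaptor median turned positive with detected-probe scaling (0.11), the local median (0.16), loess (0.022), normexp (0.025) and without the damaged strip (0.18). The effector kinase median was -0.18 with the mean and the median of probes, and the ligand median was 0.053 with no filter on dim probes.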

Other observations

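Genes related to the members also had probes that parted, as SPRY4 did. In each case below 1 probe was detected with the control vector only while another was detected on both arrays. For SPRY1 the first was at least 5.10-fold lower (75 and 11 units) and the second differed by -0.71. For ETV1 the first was at least 2.10-fold lower (30.8 and 3.27 units) and the second differed by -0.03. For TGFA, a ligand of the EGF receptor, the first was at least 2.33-fold lower, its spot lying in the damaged strip, and the second differed by 0.46. These bounds were not taken with normexp, under which the SPRY4 bound shrank from -1.38 to -0.31. The genes were chosen after their values were seen, and which transcripts each probe reads was not tested.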
